A study of Mus musculus with 2 samples.

Results

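Immunoglobulin transcripts were examined in donor T cells that had been sorted from the spleens of allogeneic bone marrow transplant recipients. The 6 genes are Igkc, Ighg1, Ighg2b, Ighg3, Ighm and Jchain, of 32285 genes listed, and they were selected on their measured values in these same libraries, so their levels and their differences between days are given as a description. Another 387 genes of the immunoglobulin loci are listed in the tables. In the transplant model, BALB/c (H-2d) mice were lethally irradiated and given T cell–depleted bone marrow together with splenic T cells from C57BL/6 (H-2b) donors, so that both groups share the irradiation, the strain pair and the graft. Live cells positive for CD45, H2Kb and TCRβ and negative for H2Kd were sorted, and suspensions from several spleens were pooled into 1 library for day +7 and 1 for day +14. The library names carry PBS and no other agent, and the protocol text names the day +7 sort for both, so the day was taken from the titles. With 1 library per day, animal, library and day cannot be told apart, and no difference between the days was tested. The intervals below are exact 95% intervals that cover counting error only.

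Antibodies are made by B cells and, in bulk, by plasma cells. Each antibody is assembled from heavy chains and light chains, and the constant region of the heavy chain sets its class, so that a plasma cell that has switched makes a single class. The kappa and lambda loci supply the light chains, and the J chain links the units of secreted IgM and IgA. T cells do not secrete antibody, but transcription from the constant region of the mu heavy chain, without a rearranged variable gene, is known in T lineage cells.

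Igkc, which encodes the constant region of the kappa light chain, lies on chromosome 6 (mm10, 70726435 to 70726966, plus strand), inside the span of the noncoding RNA gene Gm30211. The heavy chain genes lie on the minus strand of chromosome 12. Ighm, for IgM, spans 113418558 to 113422730, Ighg3 spans 113356224 to 113361232, Ighg1 spans 113325240 to 113330523, and Ighg2b spans 113302965 to 113307933. Jchain lies on chromosome 5, from 88519809 to 88527891 on the minus strand. The 3 IgG genes of the set, together with Ighg2c, are close relatives, and their last 90 coding bases in the CH3 exon of the secreted form show how far reads from the 3 prime end can tell them apart. The sequences come from the GENCODE M21 transcripts, run 5′ to 3′ on the coding strand, and carry capitals at each base that differs from Ighg1.
Ighg1 (chr12:113328979-113329068): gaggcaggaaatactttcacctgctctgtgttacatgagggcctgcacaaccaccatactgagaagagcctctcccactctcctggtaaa
Ighg2b (chr12:113306392-113306481): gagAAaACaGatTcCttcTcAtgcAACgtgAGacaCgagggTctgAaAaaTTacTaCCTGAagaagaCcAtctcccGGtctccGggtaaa
Ighg2c (chr12:113287392-113287481): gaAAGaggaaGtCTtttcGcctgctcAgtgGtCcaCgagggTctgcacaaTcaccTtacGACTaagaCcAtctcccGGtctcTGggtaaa
Ighg3 (chr12:113359668-113359757): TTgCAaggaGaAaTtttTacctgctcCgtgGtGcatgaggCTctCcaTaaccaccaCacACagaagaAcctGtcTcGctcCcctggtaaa
Ighg2b differed from Ighg1 at 31 of the 90 bases, Ighg2c at 24 and Ighg3 at 23. Over the 6 pairs the longest identical run was 19 bases, between Ighg2b and Ighg2c, and the other pairs shared runs of 6 to 9 bases. Other stretches of these genes were not compared.

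The day +7 table held 7355 barcodes with 87124828 unique molecular identifiers (UMIs), a median of 9063 per barcode, and the day +14 table held 8043 barcodes with 84233811 UMIs, a median of 7871. Of these barcodes, 20 occurred in both libraries. They held 36 UMIs of the 6 genes at day +7 and 28 at day +14. Barcodes were kept with 500 to 7500 genes and at most 15% mitochondrial UMIs, which left 7179 and 7794. The T cell class holds kept barcodes with at least 3 UMIs over Cd3d, Cd3e, Cd3g, Trac, Trbc1 and Trbc2. Barcodes with a Foxp3 UMI, with at least 10 UMIs of C1qa, C1qb and C1qc, with at least 10 UMIs of the erythroid genes Car1, Car2 and Ermap, or with at least 1% of their UMIs on S100a8 and S100a9 formed classes of their own. The 6 T cell receptor genes were all detected in the T cell class on both days, which is no check on the class because they set its bound.

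All 6 genes together gave 12024 UMIs at day +7 and 27400 at day +14, while the number of barcodes with at least 1 of these UMIs was 4410 and 4359. Igkc was counted 2525 times at day +7 and 18476 times at day +14. Scaled to UMIs per 1000000 of the library (CPM), that is 28.98 and 219.34, a log2 ratio of 2.92 (2.86 to 2.98). Ighm went the other way, with 9476 UMIs at day +7 and 4929 at day +14, or 108.76 and 58.52 CPM, a log2 ratio of -0.89 (-0.94 to -0.84). Jchain was counted 21 and 629 times, a log2 ratio of 4.95 (4.33 to 5.66). The IgG genes were close to absent at day +7. Ighg1 had 1 UMI at day +7 and 1875 at day +14 (log2 ratio 10.92, 8.44 to 16.23), and Ighg3 had 1 and 426 (8.78, 6.30 to 14.09). Ighg2b had 0 and 1065, which is at least 367-fold higher at day +14 against a floor of 3 UMIs in the day +7 library. Of 6925 genes that averaged 10 CPM or more, 132 were higher by 2-fold or more at day +14 and 86 were lower, a background of 1.91% and 1.24%. Igkc was among the higher genes, Ighm passed in neither direction, and Ighg2b, Ighg3 and Jchain were below the CPM minimum. Ighg1 met the minimum only through day +14, which fixed its direction, so its place among the higher genes adds nothing. Without barcodes of 100 or more UMIs of the 6 genes, Ighg1 fell below the minimum and Ighm was among the lower genes. Over 10365 genes that reached 100 UMIs on both days the median log2 ratio was 0.21, so relative to the median gene the log2 ratios were 2.71 for Igkc and -1.10 for Ighm, and Ighm then passed 2-fold. With that scaling 81 genes were higher and 121 lower.

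The day +14 counts came from a few barcodes with very many UMIs and from many barcodes with few, as the plot of ranked barcodes shows. At day +14, 8 barcodes held 100 UMIs or more, from 232 to 4048, and the next barcode held 31. At day +7 a single barcode held 298, and the next held 39. The bound of 100 was set after these counts were seen. The 8 barcodes held 14046 of the 27400 UMIs at day +14, or 51.3%. They held 97.1% of the Ighg1 UMIs, 95.2% of Ighg2b, 97.7% of Ighg3 and 96.3% of Jchain, but 50.1% of Igkc and 18.8% of Ighm. Hence the IgG and J chain transcripts were carried by a few barcodes, whereas most Ighm transcripts and a large part of the Igkc transcripts were spread thinly over the others.

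**Figure D1:**
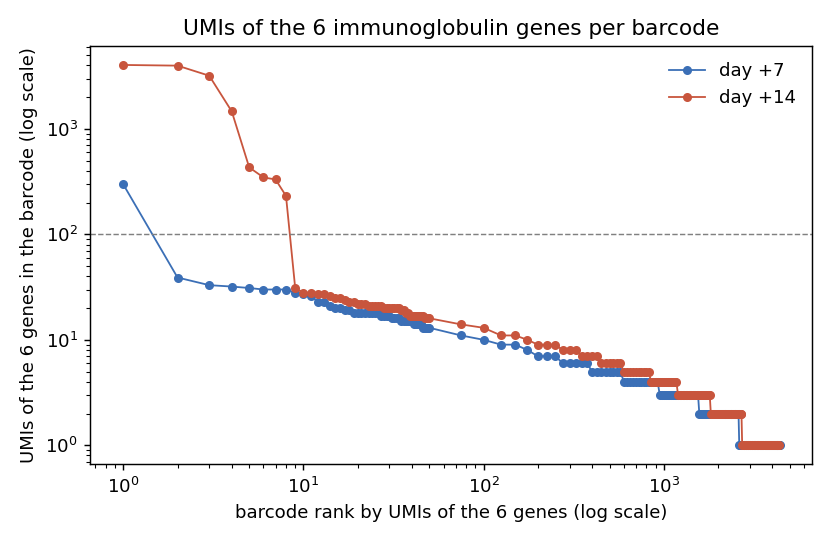
Barcodes of each library in order of their summed UMIs of Igkc, Ighg1, Ighg2b, Ighg3, Ighm and Jchain (both axes on a log scale, points for ranks in steps, dashed line at 100 UMIs). The 8 highest barcodes at day +14 lie between 232 and 4048 UMIs and the next at 31, while day +7 has 1 barcode above the line, at 298.

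Each of the 8 barcodes was led by a single heavy chain gene, which took over 95% of its heavy chain UMIs. The highest, with 4048 UMIs of the 6 genes among 25180 in all, carried 3005 of Igkc, 910 of Ighm and 133 of Jchain, and none of the IgG genes of the set. The second held 2139 of Igkc, 1611 of Ighg1 and 237 of Jchain. Most Ighg1 came from this barcode, which gave 85.9% of its UMIs in the library. The third held 2182 of Igkc, 797 of Ighg2b, 12 of Ighm and 209 of Jchain. The fourth held 1034 of Igkc, 416 of Ighg3 and 18 of Jchain, so that a single barcode supplied 416 of the 426 Ighg3 UMIs. The fifth had 212 of Igkc and 217 of Ighg2b, and the seventh had 123 of Igkc and 209 of Ighg1. The sixth and the eighth were led by Ighg2c, which is not among the 6 genes, with 45 and 147 UMIs beside 345 and 224 of Igkc. Jchain was found in 7 of the 8. Igkc was not the only light chain gene, since lambda constant genes gave 257 UMIs in the 8 barcodes beside 9264 of Igkc. The third held the most of them, with 97 of Iglc3 and 38 of Iglc1, and only the seventh held none. The day +7 barcode held 158 of Igkc, 128 of Ighm and 12 of Jchain within 562 UMIs and 151 genes.

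**Figure D2:**
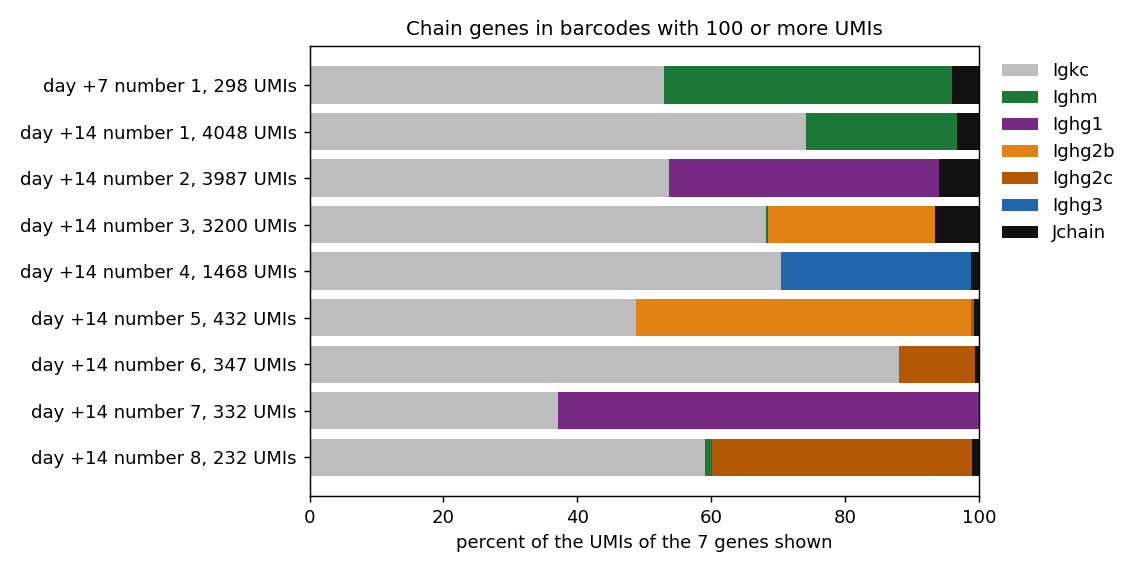
Share of each chain gene (percent of the UMIs of the 7 genes shown, Ighg2c included) in the barcodes with 100 or more UMIs of the 6 genes, 1 bar per barcode, with the UMIs of the 6 genes beside its name. Every bar holds Igkc and is led by 1 heavy chain gene: Ighm in the day +7 barcode and in the first of day +14, and IgG genes in the other 7. Lambda constant genes are not shown.

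Variable gene transcripts accompanied the constant regions in these barcodes. The 8 barcodes held 186 UMIs of variable genes, 80 of them from the kappa locus beside 9264 of Igkc, 48 from the heavy chain locus and 58 from the lambda locus. The leading variable gene was Igkv12-46 in the first with 26 UMIs, Iglv1 in the second with 35, Igkv19-93 in the third with 16, and Igkv3-7 in the fourth with 15. In the other 4 the leading gene had at most 3 UMIs, with Ighv1-69 at 1 in the fifth and the seventh and Igkv12-46 again in the eighth. All 28 UMIs of Ighv1-5 in the library lay in 1 barcode.

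Genes of the plasma cell list were high in the same barcodes. The list of 10 genes had 9 detected and summed to 10006.7 CPM in the 8 barcodes, against 166.2 CPM in the other T cells of that day. Mzb1, an endoplasmic reticulum protein of antibody-secreting cells, had 514 of its 548 UMIs there, in 7 of the 8 barcodes. Xbp1, which drives the secretory programme, stood at 985.5 CPM in them and at 34.5 CPM in the T cells. Derl3 and Fkbp11, of the same compartment, were at 530.7 and 518.0 CPM against 1.0 and 2.6. Prdm1, which T cells also use, was at 12.6 CPM in the 8 barcodes and at 35.6 CPM in the T cells, and Tnfrsf17 had no UMI in the library. The B cell list was at 644.4 CPM in the 8 barcodes, mostly through Cd79b at 341.1, with Pax5 at none. Among the genes whose level differed most from barcodes with few immunoglobulin UMIs, Slpi led with 11156 CPM and was found in all 8.

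These barcodes did not fall into a single class. At day +14, 3 of the 8 were in the T cell class, 1 in the Foxp3+ class, 1 met no class bound, 2 had under 500 genes and 1 was outside the filter with 21.3% mitochondrial UMIs. The 6 T cell receptor genes gave 25, 62 and 40 UMIs in the 3 of the T cell class and 16 in the Foxp3+ barcode, which also held 2 Foxp3 UMIs and 40 UMIs over 5 genes of the regulatory T cell list. The third barcode held no T cell receptor UMI. Scrublet, a doublet caller that scores barcodes against simulated mixtures, called none in either library, so it was taken not to have worked. None of the 5 kept barcodes was among the 486 of that day with the highest scores, but scores from a caller that did not work cannot decide whether they were doublets. The counts do not separate donor from recipient transcripts, and whether such a barcode held more than 1 cell was not tested.

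Outside these 8 barcodes, the IgG and J chain genes were scarce. The other barcodes of day +14 held 55 UMIs of Ighg1, 51 of Ighg2b, 10 of Ighg3 and 23 of Jchain, with at most 3 of any in a barcode. Ighg1 was found in 0.665% of the T cells, at no more than 2 UMIs, and in 0 of 73 granulocyte-gene barcodes, which allows a share of up to 4.11%. Ighg2b was found in 0.586% of T cells and in 1 of the 73 granulocyte-gene barcodes, and the log2 ratio of its levels, T cells over granulocyte-gene barcodes, was -1.24 (-3.79 to 4.10), an interval that gives no direction. At day +7 the 6716 T cells held 1 UMI of Ighg1, 1 of Ighg3, 9 of Jchain and none of Ighg2b.

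Igkc and Ighm were spread over the T cells themselves, of which 61.8% at day +7 and 55.6% at day +14 held a UMI of the 6 genes. In T cells with under 100 UMIs of the 6 genes, Igkc had 2044 UMIs at day +7 and 8957 at day +14, or 26.2 CPM (25.1 to 27.4) and 110.3 CPM (108.1 to 112.6). The log2 ratio was 2.07 (2.0 to 2.14). Ighm had 8215 and 3577 UMIs, or 105.5 CPM (103.2 to 107.8) and 44.1 CPM (42.6 to 45.5), a log2 ratio of -1.26 (-1.32 to -1.20). Ighm was thus the more abundant of the pair at day +7 and Igkc at day +14. Igkc made up 19.9% of the Igkc and Ighm UMIs at day +7 and 71.5% at day +14. Of 6869 genes tested in these T cells, 1.94% were higher by 2-fold or more and 1.30% lower, and 23 genes had a larger ratio than Igkc and 55 a lower ratio than Ighm. The median gene was higher by 0.19 on the log2 scale. The genes of the B cell list did not follow Igkc: 8 of 10 were detected at day +7 and 9 at day +14, they summed to 23.4 and 5.1 CPM, and Cd79b gave 20.1 and 2.53 of these. The plasma cell list summed to 189.1 and 166.2 CPM in the same T cells, with Mzb1 at 0.17 and 0.41 CPM. The part of such cells in the T cell values was not tested.

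The counts in single T cells were low on both days. At day +7, Ighm reached 1 to 2 UMIs in 2759 of 6716 T cells, 3 to 9 in 1022 and 10 or more in 35, with 22 as the highest. Igkc reached 1 to 2 in 605, 3 to 9 in 249 and 10 or more in 16. At day +14, among 7514 T cells, the highest counts were 24 for Igkc and 14 for Ighm. The variance over barcodes under 100 UMIs was 4.3 times the mean for Igkc at day +7 and 4.0 at day +14, and 3.0 for Ighm on both days. Depth was not corrected for in these ratios. Ighg1 was at 1.0 on 1 and 55 UMIs, too few for a comparison. After each barcode was thinned to 4000 UMIs, Igkc was found in 6.85% (6.25 to 7.49) of 6582 T cells at day +7 and in 27.8% (26.8 to 28.9) of 6647 at day +14. Ighm was found in 33.1% (32.0 to 34.3) and 13.3% (12.5 to 14.2). Thinning left out 134 and 867 T cells below that depth. Without thinning the shares were 13.0% and 44.1% for Igkc and 56.8% and 25.2% for Ighm.

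Few of these T cells carried both transcripts. In the thinned T cells of day +7, 292 held Igkc without Ighm, 2021 held Ighm without Igkc and 159 held both. Ighm was found in 35.3% of the T cells with Igkc and in 33.0% of those without. At day +14 those shares were 14.3% and 12.9%. Ighm was thus found about as often in T cells with Igkc as in those without.

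Variable gene transcripts were almost lacking from the T cells. At day +7, 4 UMIs of kappa variable genes stood beside 2044 of Igkc, or 0.195% of the kappa UMIs, and at day +14 it was 1 beside 8957. Heavy chain variable genes gave 0 UMIs beside 8255 of the heavy chain constant genes at day +7, which allows up to 0.0363%, and 2 beside 3728 at day +14. In the 8 barcodes with large counts the kappa variable genes were 0.856% (0.680 to 1.06) of the kappa UMIs, and the heavy chain variable genes 1.09% (0.802 to 1.44). The noncoding Gm30211, whose gene spans Igkc on the same strand, was also higher at day +14, from 89 UMIs at day +7 to 344 over all barcodes, a log2 ratio of 2.0 (1.66 to 2.35). Ighd, the next constant gene after Ighm, gave 40 and 18 UMIs.

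T cells with Cd4 and with Cd8 transcripts differed several-fold in Igkc and little in Ighm. T cells with Cd8a or Cd8b1 and no Cd4 UMI held Igkc at 28.6 CPM (27.3 to 29.9) at day +7 and 121.4 CPM (118.8 to 124.1) at day +14, in 5794 and 5938 barcodes. T cells with Cd4 and neither Cd8 transcript held it at 6.19 CPM (4.15 to 8.89) and 32.2 CPM (27.4 to 37.6), in 457 and 695 barcodes. The Cd4 level was thus 0.217 times the Cd8 level at day +7 and 0.265 times at day +14. The interval of Igkc in the Cd4 barcodes of day +7 holds the levels of the granulocyte-gene and erythroid-gene barcodes of that day, which are given after the other classes, and that of day +14 holds the granulocyte-gene level of 29.4 CPM. Both kinds were higher at day +14, by a log2 ratio of 2.38 (1.80 to 3.0) in Cd4 and 2.09 (2.02 to 2.16) in Cd8 barcodes, and granulocyte-gene barcodes, with 3 and 22 UMIs of Igkc, were also higher, by 2.81 (1.07 to 5.19). Ighm stood at 104.0 CPM in Cd4 and 104.9 CPM in Cd8 barcodes at day +7, a log2 ratio of -0.01 (-0.15 to 0.12), and at 50.8 and 42.5 CPM at day +14. These splits were chosen after the data were seen.

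**Figure D3:**
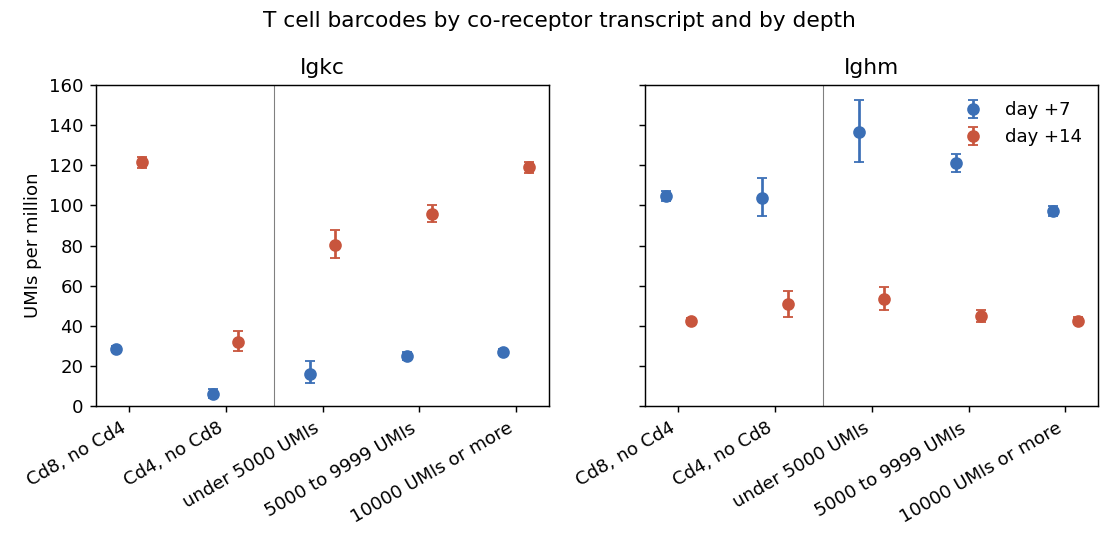
Igkc (left) and Ighm (right) in UMIs per 1000000 (CPM), summed over T cell barcodes with under 100 UMIs of the 6 genes, by co-receptor transcript and by the barcode's total UMIs, with exact Poisson intervals as bars. In every bin shown Igkc was higher and Ighm lower at day +14, and Igkc was at 6.19 and 32.2 in Cd4 barcodes against 28.6 and 121.4 in Cd8 barcodes.

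The day difference was found at each depth. In T cells with under 5000 UMIs, Igkc was at 16.3 CPM at day +7 against 80.4 at day +14, in those with 5000 or more but under 10000 at 25.1 and 95.9, and in those with 10000 or more at 27.2 and 118.9. Ighm was at 136.5 and 53.3 CPM in the shallowest bin and at 97.3 and 42.7 CPM in the deepest. T cells with Tcf7, a factor of naive and memory-like T cells, held Ighm at 179.4 and 90.1 CPM on the respective days, against 100.2 and 37.5 in those without. T cells with Gzmk, a granzyme of effector-memory CD8 T cells, held Igkc at 39.2 and 123.7 CPM, against 14.9 and 80.8 in those without. Those with Gzmk were also deeper, with medians of 9825.5 and 10145 UMIs against 8643 and 6242. The part of depth in this difference was not tested. Tcf7 and Gzmk were picked because they led the correlations in these libraries, and at Pearson's r of 0.19 for Tcf7 with Ighm at day +14 and 0.18 for Gzmk with Igkc at day +7, over T cells that share a library and differ in depth, those correlations are weak.

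Among barcodes with under 100 UMIs of the 6 genes, the Foxp3+ class was the highest for Ighm on both days. Over all barcodes of day +7 the class under 500 genes was higher, at 1095.5 CPM, through 1 barcode. The Foxp3+ class held 196 barcodes at day +7 and 90 at day +14, of which 63 and 38 had a single Foxp3 UMI. The class is a gate on a transcript, and 141 of the 196 at day +7 had Cd8 and no Cd4 UMI against 20 with Cd4 and no Cd8, so it is not named as a regulatory T cell population here. All 6 genes of the regulatory T cell list, among them Foxp3, which set the gate, were detected, with a sum of 1518.0 CPM against 494.3 CPM in the T cells at day +7. Without the barcode of 1468 UMIs, Ighm stood at 318.5 CPM (297.9 to 340.2) at day +7 and 327.0 CPM (293.4 to 363.3) at day +14. The log2 ratio was 0.04 (-0.15 to 0.22), whereas that of the T cells was -1.26. Compared with the T cells of the same day, Ighm was 3.02-fold higher at day +7, with a log2 ratio of 1.59 (1.49 to 1.69), and 7.42-fold higher at day +14, with a log2 ratio of 2.89 (2.73 to 3.05). Of the Foxp3+ barcodes, 88.3% held an Ighm UMI at day +7 and 80.9% at day +14, with a median of 3 UMIs on both days, and after thinning 63.4% (56.1 to 70.2) and 54.5% (42.8 to 65.9) did. Ighm was at 464.7 CPM in the 20 Foxp3+ barcodes with Cd4 only and at 292.3 CPM in the 141 with Cd8 only.

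Igkc in the Foxp3+ class was at 95.8 CPM (84.7 to 108.1) at day +7 and 137.4 CPM (116.0 to 161.7) at day +14, a log2 ratio of 0.52 (0.22 to 0.82). That is 3.65-fold the level of the T cells at day +7 and 1.25-fold at day +14. The Igkc UMIs were unevenly spread, with 142 of 196 barcodes at 0, 29 at 3 to 9 and 7 at 10 or more at day +7. Igkc was 23.1% of the Igkc and Ighm UMIs at day +7 and 29.6% at day +14. With the barcode of 1468 UMIs included, Igkc was at 1111 CPM at day +14, so that 1 barcode set that value. No member passed 2-fold between the days in the Foxp3+ barcodes under 100 UMIs, where 4.69% of 6991 genes were higher and 0.958% lower.

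The C1q-bearing class was small, with 67 barcodes at day +7 and 30 at day +14, and all 10 genes of its macrophage list were detected. Igkc was at 28.6 CPM (18.5 to 42.1) and 91.4 CPM (62.5 to 129.0), and Ighm at 75.4 CPM (58.3 to 95.9) and 42.8 CPM (24.0 to 70.7). The Igkc levels lay within counting error of those of the T cells on both days, with log2 ratios of 0.12 (-0.51 to 0.69) and -0.27 (-0.82 to 0.23). T cell receptor UMIs moved with them. At day +7, 40 of the 67 barcodes had at least 3 such UMIs and held 90 of the 91 UMIs of the 6 genes, while the other 27 held 1. At day +14, 20 of 30 held 47 of 48, and the other 10 held 1. The medians were 18454 UMIs in the 40 and 3735 in the 27 at day +7. None of the IgG genes was above 1 UMI in the class. Receptors for the Fc part of antibodies were detected in the class, with Fcer1g at 735.4 CPM and Fcgr4 at 199.8 CPM at day +7 against 159.2 and 0.92 CPM in the T cells. The list of immunoglobulin receptors did not set the class apart from granulocyte-gene barcodes, which held 1317.5 CPM of it at day +7 and 1201.4 CPM at day +14, against 1344.0 and 1025.3 CPM.

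**Figure D4:**
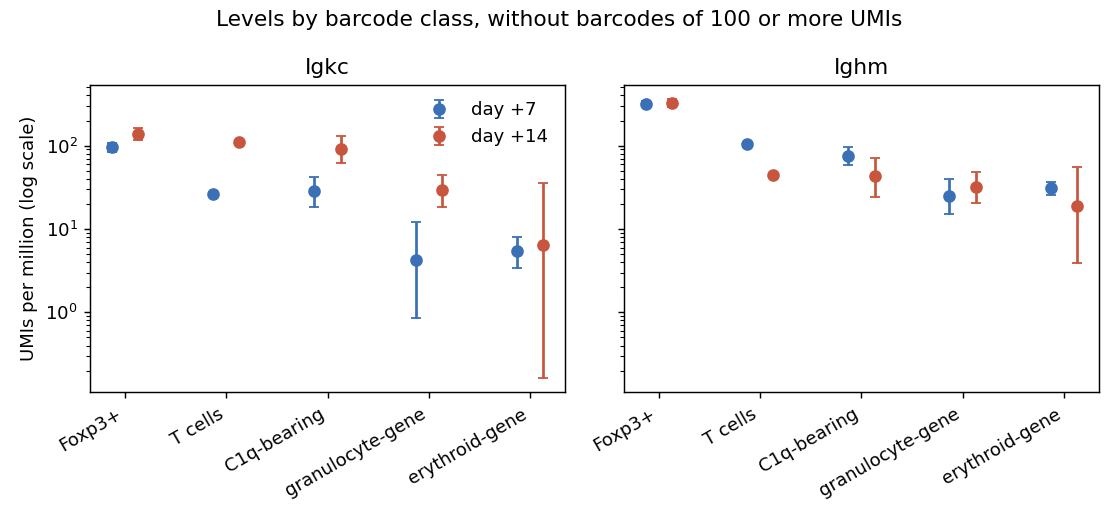
Igkc (left) and Ighm (right) in UMIs per 1000000 (CPM) (log scale) by barcode class and day, without barcodes of 100 or more UMIs of the 6 genes, with exact Poisson intervals as bars. Ighm is highest in the Foxp3+ class on both days, at 318.5 and 327.0, and Igkc in the T cells goes from 26.2 to 110.3.

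Granulocyte-gene and erythroid-gene barcodes, whose cell types should lack both transcripts, were compared with the T cells, although they were not free of T cell transcripts. The 6 T cell receptor genes summed to 1024.5 CPM in granulocyte-gene barcodes at day +7, found in 18 of 41, and to 2082.0 CPM at day +14, in 46 of 73. In erythroid-gene barcodes they summed to 1245.0 CPM at day +7, in 75 of 122, and in the T cells to 6009.3 and 7623.7 CPM. Granulocyte-gene barcodes held Igkc at 4.2 CPM (0.87 to 12.3) and 29.4 CPM (18.4 to 44.5) on the respective days, and Ighm at 25.2 CPM (14.95 to 39.9) and 32.1 CPM (20.6 to 47.7). Their median depths were 13812 and 7079 UMIs, against 9100 and 8197 in the T cells. Erythroid-gene barcodes of day +7 held Igkc at 5.39 CPM and Ighm at 30.7 CPM. Relative to the granulocyte-gene barcodes, T cells held 6.24-fold more Igkc at day +7 and 3.75-fold more at day +14, and 4.18-fold more Ighm at day +7. At day +14 the log2 ratio for Ighm was 0.46 (-0.12 to 1.10) over the granulocyte-gene barcodes and 1.21 (-0.34 to 3.48) over the 21 erythroid-gene barcodes, which held 3 UMIs of Ighm and 1 of Igkc. Both intervals hold 0, so neither class separated the T cell level of Ighm at that day from its own. The thinned shares of barcodes with an Ighm UMI at day +14 were 13.3% in T cells and 7.55% (2.09 to 18.2) in 53 granulocyte-gene barcodes.

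T cell receptor UMIs moved with Igkc in these barcodes too, in a split chosen after the values were seen. At day +14 the 22 granulocyte-gene barcodes with at least 3 T cell receptor UMIs held 20 of the 22 Igkc UMIs, at 50.4 CPM (30.8 to 77.8), and the other 51 held 2, at 5.69 CPM (0.689 to 20.6). Ighm was at 40.3 CPM (23.0 to 65.5) and 22.8 CPM (9.83 to 44.9) in the same barcodes. Among the erythroid-gene barcodes of day +7, the 37 with such UMIs held 128 of the 131 Ighm UMIs, at 67.7 CPM (56.5 to 80.5), and the other 85 held 3, at 1.26 CPM (0.260 to 3.69). Igkc stood at 9.52 CPM (5.64 to 15.04) and 2.10 CPM (0.683 to 4.91) there. The median depths were 14058 and 5623 UMIs in the granulocyte-gene pair and 54082 and 32315 in the erythroid-gene pair. The granulocyte-gene barcodes of day +7 held Ighm at 22.8 CPM (8.37 to 49.6) in 7 barcodes with such UMIs and at 26.6 CPM (13.8 to 46.5) in the 34 with fewer, so Ighm did not follow them there. Barcodes with few T cell receptor UMIs thus held Igkc at 2.10 to 5.69 CPM in these 3 sets, on only 1 to 5 UMIs each. The granulocyte-gene set of day +7 held 1 UMI, at 2.22 CPM (0.056 to 12.4). T cells held 26.2 and 110.3 CPM on the respective days. Ighm ranged from 1.26 to 26.6 CPM in these sets against 105.5 and 44.1. The granulocyte-gene interval of day +14, 9.83 to 44.9, holds the T cell level of 44.1. C1q-bearing barcodes with under 3 such UMIs held 1 Igkc UMI on each day, at 7.49 CPM (0.19 to 41.7) and 35.8 CPM (0.91 to 199.6), intervals that hold the T cell levels. The same C1q-bearing barcodes held no Ighm UMI on either day, with upper limits of 27.6 and 132.2 CPM. The part of T cell RNA in these values was not tested.

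Barcodes with under 500 genes held few UMIs of the 6 genes apart from the high ones. At day +7, 134 such barcodes held 302 UMIs of the 6 genes, 298 of them in 1 barcode, and the other 133 held 4 UMIs, all of Ighm. At day +14, 133 held 2 of the 8 high barcodes, and the other 131 held 13 UMIs, 5 of Igkc and 4 of Ighm among them. Igkc was then at 50.7 CPM (16.5 to 118.4) and Ighm at 40.6 CPM (11.1 to 103.9), intervals that hold the levels of the T cells. At day +7 the upper limit for Igkc, without a UMI, was 30.8 CPM, which also lies above the T cell level. Ighm was at 33.4 CPM (9.09 to 85.4) at day +7, against 105.5 CPM in the T cells.

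Other genes of antibody biology, taken by their known roles, were mostly scarce. Of 10 genes of class switching and the germinal centre, 10 were detected in the T cells on both days and 2 reached 10 CPM on each. Rag1, Rag2, Dntt and Igll1 of the list for recombination and the surrogate light chain had no UMI at day +14 and 1 at day +7, of Igll1, while Vpreb1 had 98 at day +7 and 56 at day +14. Tnfsf13b, which encodes the B cell survival factor BAFF, was at 1.41 CPM in T cells at day +7 and 11.1 CPM at day +14. Of the genes for its receptors, Tnfrsf13b was at 17.0 and 6.66 CPM, and Tnfrsf13c at 5.65 and 5.83 CPM. Of the 12 genes for receptors that bind or carry immunoglobulin, 2 reached 10 CPM in the T cells on each day, and Fcer1g, a signalling chain, was at 159.2 and 20.0 CPM.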

How the data were processed

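The 6 genes and the gene lists were chosen with earlier results of these data known. The authors deposited counts of UMIs per gene and barcode for each library, as whole numbers without normalization, and the submitters' processing notes name Cell Ranger 6.1.2 and mm10. The splits by 100 UMIs, co-receptor, T cell receptor, Tcf7, Gzmk and depth were added after the counts were seen. Genes were matched by symbol, and 32235 of 32285 identifiers were found in GENCODE M21, an annotation of the same build. UMIs were summed over barcodes and scaled per 1000000 UMIs (CPM). CPM carry exact Poisson intervals, shares Clopper-Pearson intervals and ratios exact conditional binomial intervals, at 95%. Classes were assigned in the order of gene number, filter, C1q, S100a8 and S100a9, erythroid genes, Foxp3 and T cell receptor. Counts of genes past 2-fold used a mean of 10 CPM and 1 CPM added. Named genes were the members, the listed genes, the highest correlations and the genes leading the high barcodes. Libraries were thinned to 4000 UMIs per barcode. No test was run, since each day has 1 library. Python 3.11.15, numpy 2.4.6, scipy 1.17.1 and scanpy 1.11.5 (Scrublet) were used, and the calculations were tested on simulated data. Some listed genes are not reported here.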

Additional observations from a re-analysis of the deposited data

How the results depend on the processing

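No paired analysis was possible because each day has 1 library. The log2 ratios of day +14 over day +7 kept their direction under every alternative run, and their sizes moved with the barcodes used. The 6 genes together went from 1.24 to 0.26 without the 10 barcodes with most of their UMIs and to 0.24 without those of 100 or more, to 0.97 in T cells, 1.30 without the highest doublet scores, 1.03 with median-ratio scaling and 0.83 as the mean of the barcodes' own CPM. In that order Igkc was at 2.05, 2.01, 2.75, 3.04, 2.71 and 2.0, and Ighm at -1.16 and -1.17 without the high barcodes, -1.10 with median-ratio scaling and -1.41 as the mean over barcodes. Without the barcodes of 100 or more UMIs, day +14 T cells went from 176.3 to 110.3 CPM of Igkc and from 55.3 to 44.1 of Ighm, and Foxp3+ barcodes from 1111 to 137.4 of Igkc. Foxp3+ barcodes with 2 or more Foxp3 UMIs held 1730 of Igkc and 272.1 of Ighm at day +14. That gate still includes the barcode of 1468 UMIs, which holds 2 Foxp3 UMIs and 1034 of Igkc. The levels at that gate without it were not calculated. C1q-bearing barcodes held 104.7 CPM of Ighm at day +7 with a bound of 3 C1q UMIs and 38.8 of Igkc at day +14 with a bound of 30. Thinned to 2000 UMIs, the T cell shares were 4.15% and 15.9% for Igkc and 18.6% and 7.96% for Ighm, and the Foxp3+ shares 44.4% for Ighm at day +7 and 13.8% for Igkc at day +14. Genes past 2-fold were 406 higher and 254 lower with no filter on CPM, and 81 higher with median-ratio scaling. In all, 43 of 92 alternative values stayed within the counting interval of the value reported, or within 1.5 times of a count. None of the log2 ratios among them changed sign, and the CPM, shares and gene counts cannot change sign. The causes of the moves that come from the choice of barcodes lie in that choice, and the others were not tested. Single high barcodes decide the IgG and Jchain values, and 1 library per day limits every difference between days.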
